A study of Mus musculus with 2 samples.

Results

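The Fanconi anemia core complex is the ubiquitin ligase that starts the repair of DNA crosslinks, and the genes of 10 of its subunits and partners were examined here for open chromatin at their ends, start sites and surroundings. The genes were Fanca, Fancb, Fancc, Fance, Fancf, Fancg, Fancl, Fancm, Faap24 and Faap100, taken by symbol from the 21887 protein-coding genes of the RefSeq annotation of mm10 (GRCm38). All 10 were found. For each gene, accessible regions were taken from the gene body and 50 kb on each side, which gave 17 of 13012 regions in H1C and 39 of 31843 in control. A region within 1 kb of either end of the gene was called a gene-end region.

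The regions came from ATAC-seq, which maps open chromatin by the places where a transposase inserts adapters. The H1C group was wild-type C57BL/6J hematopoietic stem cells (CD48-CD150+LSK) from bone marrow that carried an MSCV retrovirus with H1C, a linker histone gene now named H1f2. The control group was the same kind of cells with the empty pMSCV retrovirus. Each group was 1 library of about 1000 cells, so nothing below has a replicate check and no test between conditions was possible. The sources used here do not give the age or number of mice or how transduced cells were selected. Both groups had been through retroviral transduction, so neither shows untouched stem cells.

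In a cell, the core complex is built from modules. FANCM and FAAP24 recognise the stalled, crosslinked fork. FANCB, FANCL and FAAP100 form the catalytic module, in which FANCL is the RING ubiquitin ligase. FANCA with FANCG, and FANCC with FANCE and FANCF, complete the complex, which attaches a single ubiquitin to FANCD2 and FANCI. Inherited loss of many of these genes in people causes bone marrow failure, and stem cells of the marrow depend on the pathway. Linker histones sit on the nucleosome at the entry and exit of its DNA and compact the fiber.

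The peak lists hold no read totals. The height of each summit (the pileup, the number of reads or fragments stacked there) and the local background were solved from the deposited fold and −log10 p. The genome background was 4.40 in H1C and 3.99 in control, a ratio of 1.10, and ratios of H1C to control pileup below were divided by it. This background is in proportion to depth only where reads were extended to the same length in both lists, which was not checked. Local background, at the median over shared summits, had the opposite order, 5.44 in H1C and 6.26 in control, a ratio of 0.869. Local background takes in reads of the region itself. Of 12 stem cell marker genes, 1 had a gene-end region in H1C (Runx1) and 8 had one in control, and Procr, Mecom and Gata2 were among those with none in either list. Of 5 T cell markers 1 (Cd3d) had one in H1C and 2 in control, and of 4 B cell markers 1 (Cd79a) had one in H1C and 3 in control. No myeloid, erythroid or endothelial marker had one in H1C, while in control 1 of 5, 1 of 4 and 2 of 3 had. Over all protein-coding genes the shares were 33.6% in H1C and 46.9% in control. Among these markers the highest control pileups were 69 at Cd3d, 63 at Cd79a and 57 at Runx1. In H1C these 3 genes had 35, 27 and 26. Whether the marker regions also lie at an end of another gene was not checked. The part of other cells in the results below was not tested.

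Most core complex genes were open at an end in both libraries, with lower and narrower summits in H1C. A gene-end region was called at 7 of the 10 genes in H1C and at 9 in control. Over all protein-coding genes the shares were 33.6% in H1C and 46.9% in control. All 7 genes with a region in H1C also had one in control. Over all genes, 71.0% of those open at an end in control were open at an end in H1C too. Fancf and Fancg had theirs in control alone, and Fancc had none at either end of its annotated span. Counted by region, 7 of 11 control gene-end regions overlapped an H1C region by at least 1 bp (63.6%, exact binomial 95% interval 30.8 to 89.1), against 62.9% of all 10147 control gene-end regions. All 7 gene-end regions of H1C overlapped a control region. Of the 11 control gene-end regions, 6 also lie at an end of another protein-coding gene, and 4 of these were shared. Of the 5 at no other protein-coding gene, 3 were shared. The share of core complex genes with a gene-end region was thus above that of all protein-coding genes in both libraries, a difference that was not tested, and the fraction of their regions shared lay near that of all gene ends. The farthest region inside the 1 kb limit lay 401 bp from an end (Fancf) and the nearest outside it 1325 bp (Fancm), both in control.

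**Figure D1:**
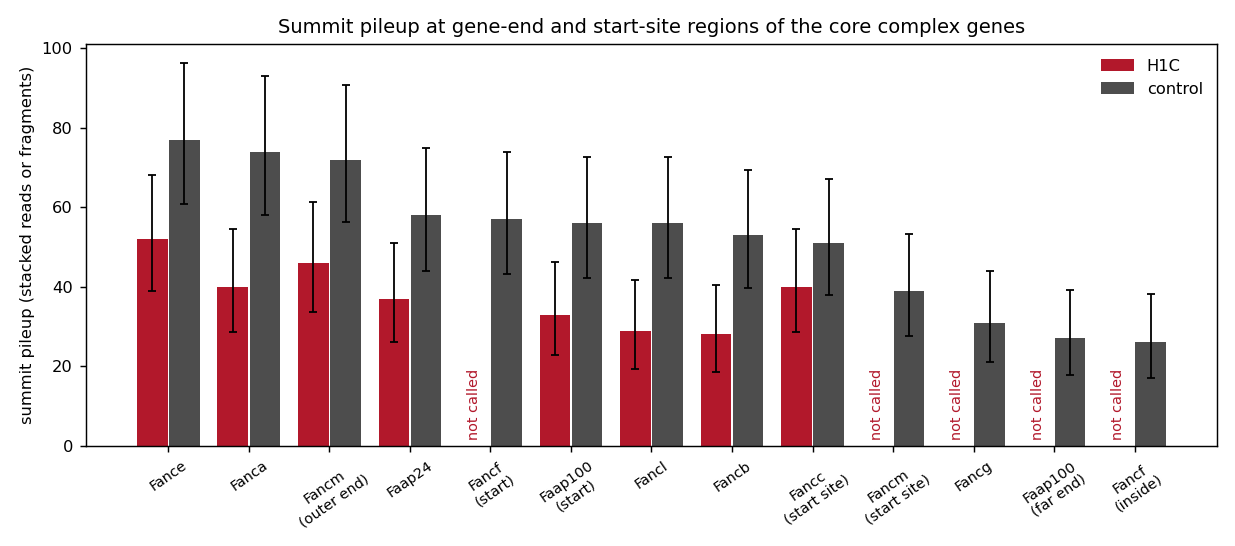
Summit pileup (vertical axis, reads or fragments stacked at the summit) of every region at a gene end or start site of the core complex genes, in H1C (red) and control (grey), 1 library each, ordered by control pileup. Bars start at 0 and the lines are exact Poisson 95% intervals for counting error. The H1C bar is the lower in all 8 pairs, and 5 regions had no H1C call, among them Fancf at its start with a control pileup of 57.

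RefSeq start sites gave the same number of genes in H1C with different members. A region lay within 1 kb of the start site of 7 of the 10 genes in H1C and of all 10 in control. Over all 21263 start sites of protein-coding genes the shares were 34.4% in H1C and 47.5% in control, and 72.1% of those with a control region also had one in H1C. The start sites of Fancf, Fancg and Fancm had a region in control alone. Fancc entered this count because its RefSeq start site lies 65547 bp inside the annotated span, and Fancm left it because its gene-end region lies 1436 bp from the start site in H1C and 1342 bp in control.

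The promoter bases show how differently these genes begin. The 250 bases before the RefSeq start site are given for 4 genes, 5′ to 3′ on the gene's strand, from RefSeq (GRCm38.p6). Fancf is shown as the strongest start region with no H1C call, Fancl and Faap24 as regions of like control pileup that were called in H1C, and Fance as the strongest of the set. Capitals mark the letters of the searched motifs on either strand. The motif letters were CCGGAAG for the ETS family of transcription factors, GGGCGG for the SP1 and KLF family, CCAAT for the trimeric factor NF-Y and GCATGCGC for NRF1. The cell cycle factors of the E2F family were searched as TTTCCCGC and as TTTGGCGC, the CREB family as TGACGTCA, and the blood factors of the GATA family as AGATAA.
Fancf, chr7:51862268-51862517, minus strand: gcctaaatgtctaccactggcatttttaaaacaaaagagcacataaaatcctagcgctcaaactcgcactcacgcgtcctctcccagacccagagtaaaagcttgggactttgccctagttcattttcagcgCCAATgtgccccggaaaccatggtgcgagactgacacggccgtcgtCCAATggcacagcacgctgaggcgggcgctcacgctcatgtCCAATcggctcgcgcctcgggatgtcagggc
Fancl, chr11:26386834-26387083, plus strand: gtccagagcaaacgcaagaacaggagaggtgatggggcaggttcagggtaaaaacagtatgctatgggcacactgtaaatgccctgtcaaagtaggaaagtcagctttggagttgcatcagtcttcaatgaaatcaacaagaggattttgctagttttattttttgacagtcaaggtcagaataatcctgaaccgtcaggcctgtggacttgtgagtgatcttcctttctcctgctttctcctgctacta
Faap24, chr7:35396768-35397017, minus strand: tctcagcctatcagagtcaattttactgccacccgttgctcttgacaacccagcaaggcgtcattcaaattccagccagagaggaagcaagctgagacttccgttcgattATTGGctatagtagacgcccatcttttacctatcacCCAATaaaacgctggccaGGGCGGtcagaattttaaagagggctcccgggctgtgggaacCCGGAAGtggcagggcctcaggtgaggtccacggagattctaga
Fance, chr17:28313280-28313529, plus strand: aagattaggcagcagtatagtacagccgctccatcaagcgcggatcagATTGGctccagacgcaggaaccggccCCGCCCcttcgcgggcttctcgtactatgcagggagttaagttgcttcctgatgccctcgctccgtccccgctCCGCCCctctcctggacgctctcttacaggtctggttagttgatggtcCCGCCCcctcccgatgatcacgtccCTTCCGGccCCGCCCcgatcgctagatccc
The window of Fancf held 3 copies of CCAAT, the last of them 31 to 27 bases before the start. The window of Fance held 4 copies of GGGCGG, all on the other strand, besides 1 CCAAT and 1 CCGGAAG. Fancl held none of the searched motifs. For Fancg, whose window lies inside the span of the gene, 30 bases around its single motif, TTTCCCGC 52 to 45 bases before the start, are given.
Fancg, chr4:43010335-43010364, minus strand: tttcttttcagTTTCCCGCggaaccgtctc

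CCAAT was the most frequent motif among the core complex genes, found in 7 of 10 windows, against 35.3% of 21230 windows of protein-coding genes and 36.8% of the 10085 with a control region within 1 kb of the start. GGGCGG was in 6 of 10, against 42.6% and 62.3%. CCGGAAG was in 2 (Fance and Faap24), against 8.98% and 16.1%. TTTCCCGC was in Fancg alone (1.18% and 1.99%) and GCATGCGC in Fancm alone (2.93% and 4.99%). TTTGGCGC, TGACGTCA and AGATAA were in none of the 10 windows, and they occur in 0.509%, 1.93% and 8.81% of all windows and in 0.863%, 2.95% and 5.23% of those with a control region. The motifs share no letters with each other in the 4 windows shown. The G+C share of the 10 windows ran from 44.4% in Fancl to 68.4% in Faap100, with a median of 58.2%, against 60.8% for windows with a control region. The observed-to-expected ratio of CpG, a measure of CpG islands, ran from 0.165 in Fancl to 1.01 in Fancm, with a median of 0.672 against 0.764. Of the genes with no H1C region within 1 kb of the start site, Fancm had a CpG ratio of 1.01, Fancf 0.949 and Fancg 0.681. The 7 with one ran from 0.165 (Fancl) to 0.906 (Fance). Fancm and Fancf thus lay above all 7 and Fancg inside their range, a difference that was not tested. The window of Fancl lies outside its H1C region, and the next lowest of the 7 was Fancb at 0.538.

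**Figure D2:**
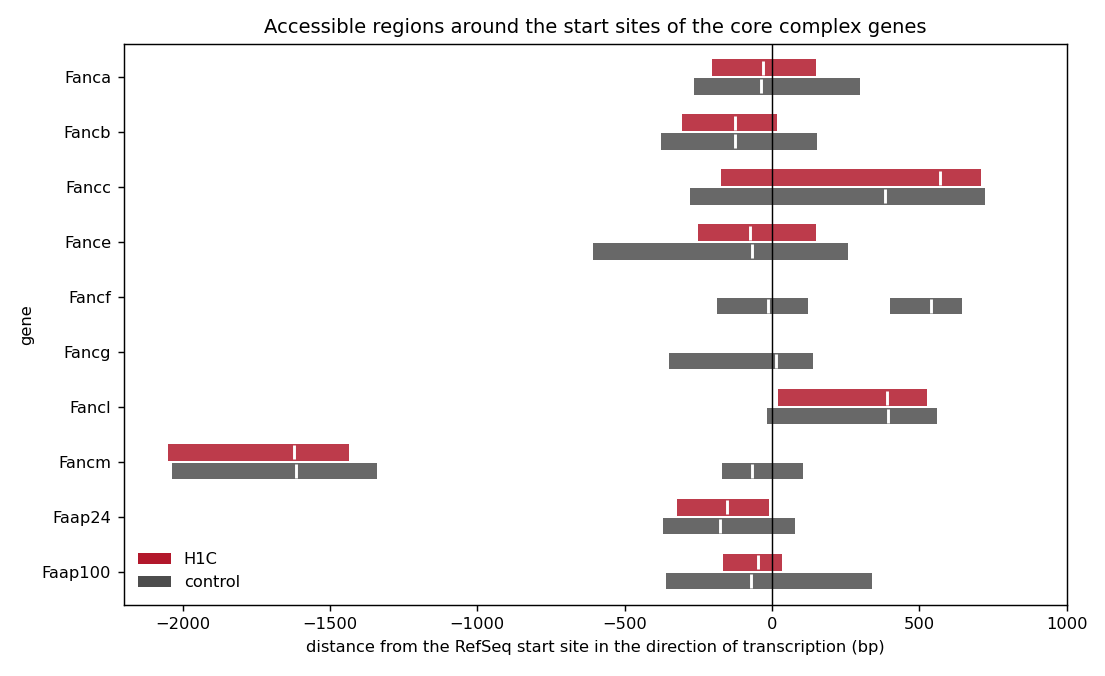
Regions around the RefSeq start site (vertical line at 0) of each gene, in H1C (red, upper bar) and control (grey, lower bar), plotted as distance in bp in the direction of transcription, with a white mark at each summit. In Fancl the region lies almost wholly after the start, in Fancm the shared region lies over 1 kb before it, and Faap100 has the narrowest H1C bar (201 bp); the far-end region of Faap100 is off the scale.

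In the anchor module, the start site of Fancm was called in control alone while the neighbouring gene end was called in both libraries. FANCM is a DNA translocase that brings the complex to the fork. Its span (chromosome 12, 65074110 to 65131842) begins 1493 bp before its RefSeq start site and close to Fkbp3, which encodes a prolyl isomerase. The gene-end region, at 65073553 to 65074167 in H1C and 65073566 to 65074261 in control, also lies at the end of Fkbp3. Its pileup was 46 in H1C and 72 in control (log2 ratio of the depth-scaled pileups -0.79, exact conditional binomial 95% interval -1.35 to -0.23). At the start site itself, control had a region at 65075435 to 65075707 with a pileup of 39 and a fold of 4.57, and H1C had no call. Of 1173 control gene-end regions with pileups of 36 to 42, 57.7% were also called in H1C, and of the 314 of these within 25% of its width of 273 bp, 36.0% were.

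Faap24 encodes the DNA-binding partner of FANCM. Its gene (chromosome 7, 35392152 to 35396767) starts 232 bp from Cep89, a centrosomal protein gene, and the region between them belongs to both ends. It ran from 35396778 to 35397091 in H1C, pileup 37, and from 35396690 to 35397137 in control, pileup 58 (log2 ratio -0.79, -1.43 to -0.17). In H1C it stopped 11 bp short of the Faap24 start site, while in control it spanned the site.

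In the catalytic module, all 3 genes were called in both libraries. Fancb, the X-linked gene of the complex (chromosome X, 164980480 to 164997272), had a pileup of 28 in H1C and 53 in control (log2 ratio -1.06, -1.78 to -0.38), with the summit at the same base, 164980465, in both lists. The region also lies at the end of Mospd2, whose span overlaps that of Fancb. The interval, at 164980288 to 164980609, was 322 bp wide in H1C, against 530 bp in control.

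Fancl (chromosome 11, 26387084 to 26471883) had the lowest ratio of the gene-end regions. FANCL carries the RING domain that hands ubiquitin to FANCD2 with the conjugating enzyme UBE2T. Its region ran from 26387103 to 26387610 in H1C, pileup 29, and from 26387066 to 26387645 in control, pileup 56 (log2 ratio -1.09, -1.79 to -0.42). The summits lay 391 bp (H1C) and 395 bp (control) after the RefSeq start, so the promoter bases printed above, with 2 CpG, lie just outside the region in H1C and at its edge in control.

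Faap100, which encodes the scaffold partner of FANCB and FANCL (chromosome 11, 120369562 to 120378746), had the largest difference in width. At its start the region was 201 bp wide in H1C (120378713 to 120378913, pileup 33) and 699 bp wide in control (120378407 to 120379105, pileup 56), with a log2 ratio of -0.90 (-1.57 to -0.26). In both libraries this region also lies at the end of Nploc4, so it belongs to both genes. The lists hold no region under 200 bp, so the H1C interval is close to the smallest that could be listed. At the far end of the gene H1C had no call, and control had a weak region at 120369712 to 120369972 with a pileup of 27. Of all control gene-end regions with pileups of 25 to 29, 20.8% were called in H1C, and of the 530 of these within 25% of its width of 261 bp, 13.2% were.

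Of the FANCA and FANCG pair, Fanca was called in both libraries and Fancg in control alone. FANCA is the subunit most often mutated in people with Fanconi anemia, and FANCG is the adaptor that holds it. Fanca (chromosome 8, 123266294 to 123318651) had a region at 123318427 to 123318778 in H1C, pileup 40, and at 123318277 to 123318840 in control, pileup 74 (log2 ratio -1.03, -1.62 to -0.46). Fancg (chromosome 4, 43002337 to 43010567) had no H1C call, and in control a region at 43010162 to 43010649 with a pileup of 31 and a fold of 5.48. Of 1298 control gene-end regions with pileups of 28 to 34, 32.4% were called in H1C, and of the 461 of these within 25% of its width of 488 bp, 40.1% were.

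Of FANCC, FANCE and FANCF, the last had no call in H1C. FANCF is an adaptor that links the other modules, and its gene (chromosome 7, 51860577 to 51862267) overlaps one end of the span of Gas2, a gene for a protein of the cytoskeleton. In control a region at 51862146 to 51862453 covered the Fancf start site, with a pileup of 57 and a fold of 9.42, and a weaker one at 51861622 to 51861866 had a pileup of 26. Neither overlapped an H1C region, and within 50 kb of the gene H1C had no region at all. Of 1409 control gene-end regions with pileups of 52 to 62, 92.7% were called in H1C, and of the 180 of these within 25% of its width of 308 bp, 76.1% were. At the median ratio of all shared gene-end regions, a control pileup of 57 would correspond to an H1C pileup of 35.0. That ratio was taken only over regions called in both lists, so it leaves out regions with no H1C call, as at Fancf. Among 3604 H1C entries with a local background within 10% of the depth-scaled control value there (5.69), the lowest pileup was 16. The H1C pileup at Fancf is not in the list, and a summit high enough but narrower than 200 bp would not be listed either.

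Fance encodes the subunit that binds FANCD2, and its region was the highest of the set in both libraries. The gene (chromosome 17, 28313530 to 28326574) had a region at 28313279 to 28313680 in H1C, pileup 52, and at 28312924 to 28313788 in control, pileup 77 (log2 ratio -0.71, -1.24 to -0.18). The width was 402 bp in H1C and 865 bp in control. Fancc (chromosome 13, 63301334 to 63497292) encodes the partner of FANCE and FANCF in their module, and its start site region ran from 63431034 to 63431918 in H1C, pileup 40, and from 63431022 to 63432024 in control, pileup 51. Its log2 ratio of -0.49 (-1.13 to 0.13) was the nearest to 0 among the start sites, with an interval that takes in 0. Its summits lay 187 bp apart, against 0 to 24 bp for the 7 shared gene-end regions.

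**Figure D3:**
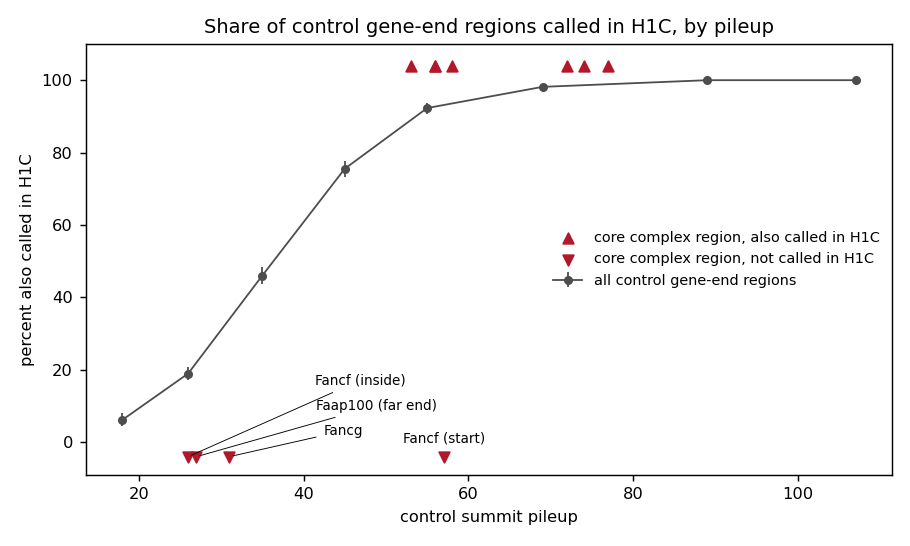
Share of all control gene-end regions also called in H1C (vertical axis, percent) by control summit pileup (horizontal axis), with exact binomial 95% intervals. Triangles mark the 11 gene-end regions of the core complex genes, placed above the curve where also called in H1C and below it where not, 2 of them overlapping at a pileup of 56. The 7 called regions lie at pileups of 53 to 77, and the uncalled ones at 26, 27, 31 and, for Fancf, 57.

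The control pileup ordered the gene-end regions, with Fancf as the exception. The 7 shared regions had control pileups of 53 to 77, a range in which 95.6% of all 2601 control gene-end regions were shared. Over all control gene-end regions the share called in H1C was 19.0% at pileups above 20 and up to 30, 46.0% above 30 and up to 40, and 92.3% above 50 and up to 60. Of the core complex regions not called in H1C, 3 had pileups of 26 to 31. The start region of Fancf had 57, and of the 180 control gene-end regions like it in both pileup and width, 76.1% were called in H1C.

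At the 7 shared gene-end regions the H1C summit was lower, by about the amount seen at all gene ends. The depth-scaled log2 ratio ran from -1.09 (Fancl) to -0.71 (Fance), with a median of -0.90, a ratio of 0.534. Over all 6385 shared gene-end regions the median was -0.84 (quartiles -1.04 and -0.65), and over the 2486 with control pileups of 53 to 77 it was -0.91 (quartiles -1.10 and -0.73). A ratio exists only where both lists have a region, and 37.1% of all 10147 control gene-end regions had no H1C region. The medians leave those out. All 7 counting intervals lay below 0, as did 74.8% of those at all shared gene-end regions. With no depth scaling all 7 lay below 0 too, against 60.4% of all. With the ratio of local backgrounds (0.869) as the scale, the median was -0.56 and 3 of 7 intervals lay below 0, against 34.2% of all. The shares of all take in every control pileup, and an interval is narrower where counts are higher. The matching shares at control pileups of 53 to 77 were not computed, so 7 of 7 cannot be read as particular to these genes. Intervals cover counting error only, and amplified fragments are not independent molecules. A lower summit can come from fewer cells with the site open or from less cutting per cell, and these lists cannot tell them apart. Over all 6385 shared gene-end regions 98.9% of the ratios lay below 0. A difference in signal over background between the whole libraries cannot be told apart from H1C with 1 library per group. It was not tested.

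**Figure D4:**
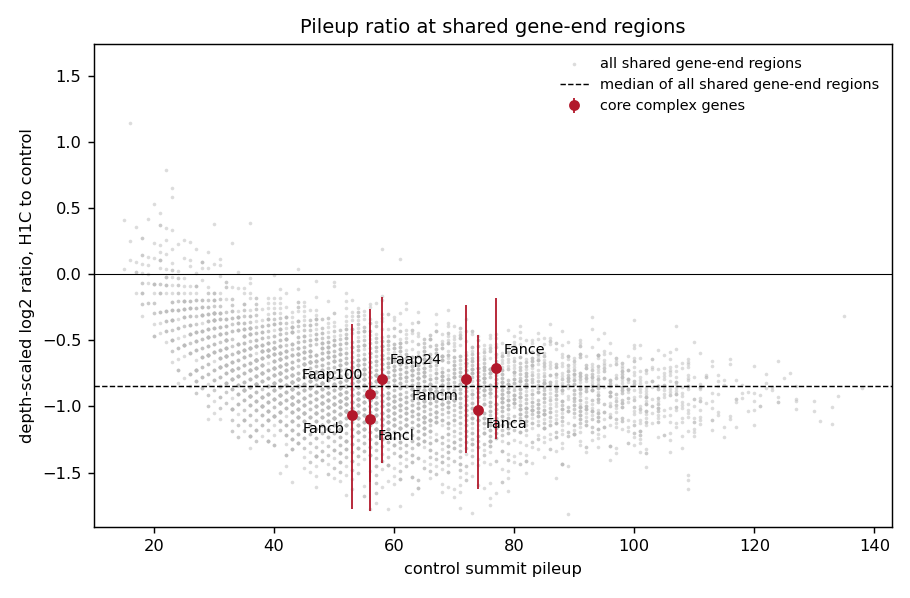
Log2 of the H1C pileup over the control pileup, scaled for depth (vertical axis), against control summit pileup (horizontal axis) at all 6385 shared gene-end regions (grey) and at those of the core complex genes (red, with exact conditional binomial 95% intervals). The solid line is 0 and the dashed line the median of all, -0.84; the 7 genes lie between -1.09 and -0.71, within the cloud.

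The shared regions were narrower in H1C in 7 of 7 genes, against 90.6% of all shared gene-end regions. Among those with control pileups of 53 to 77 the share was 92.9%. The H1C width was 28.8% (Faap100), 46.5% (Fance), 60.8% (Fancb), 62.4% (Fanca), 70.1% (Faap24), 87.6% (Fancl) and 88.4% (Fancm) of the control width. The median was 62.4%, against 71.0% over all shared gene-end regions in the same range of control pileup. A called width depends on the height of the summit as well as on the shape of the region. The summits of H1C and control lay within 24 bp of each other, and the median distance over all shared gene-end regions was 25 bp.

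In control, regions away from the gene ends were shared with H1C at about the rate of all genes. The 10 genes had 10 such regions in H1C and 28 in control, and 9 of the 28 were shared (32.1%, exact binomial 95% interval 15.9 to 52.4), against 37.3% of such pairs of a gene and a region over all genes. Without the start site regions of Fancc and Fancm, 8 of 26 were shared. Of the 26, 4 of 11 at an end of another protein-coding gene were shared, against 62.9% of all control gene-end regions, a difference that was not tested. At no gene end 4 of 15 were shared, against 20.7% of such regions over the whole control list. The 11 unshared regions at no gene end had pileups of 13 to 37, with a median of 21. Fancb and Fancl had no region of this kind in either list.

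The strongest neighbouring regions lay around Fancg. A region at no protein-coding gene end, 29579 bp from the gene (chromosome 4, 43040146 to 43040586 in control), had pileups of 59 in H1C and 96 in control (log2 ratio -0.84, -1.34 to -0.36). The end of Vcp, an ATPase gene next to Fancg, had 60 in H1C and 91 in control (log2 ratio -0.74, -1.24 to -0.26). Around Faap100, a region 15362 bp away had 37 in H1C and 81 in control, the lowest ratio of the neighbouring regions at -1.27 (-1.87 to -0.69). The end of Rpl10a, a ribosomal protein gene near Fance, had 36 in H1C and 49 in control (-0.59, -1.25 to 0.06).

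Around Fanca, none of its 6 control regions away from the ends had an H1C region. They included the ends of Vps9d1 and Zfp276 (control pileup 55) and of Spata2l (control pileup 48). Of control gene-end regions with pileups of 50 to 60, 91.9% were called in H1C, and of those with 44 to 52, 81.7% were; within 25% of their widths the shares were 80.7% and 71.4%. The other 4 had pileups of 19 to 24, and those among them at gene ends were Cdk10 (22) and Spire2 (19). Of control gene-end regions with pileups of 20 to 24, 12.8% were called in H1C, and of those with 18 to 20, 8.20% were; within 25% of their widths the shares were 8.08% and 13.5%.

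At Fancc, 1 region had the higher summit in H1C, and it lay 49155 bp from the gene end in control. It had a pileup of 34 in H1C and 22 in control (log2 ratio 0.49, -0.33 to 1.33), a difference within counting error. The inner region at 63364335 to 63364772 in control had 20 in H1C and 25 in control (-0.46, -1.39 to 0.44). Faap24 and Fancf each had a single region of this kind, in control alone, with pileups of 20 and 21. A single region was called in H1C alone, at 120359643 to 120359858 on chromosome 11, 9704 bp from Faap100 and at the end of Fscn2, an actin-bundling protein gene, with a pileup of 23. Over all genes 10.5% of such H1C pairs were in H1C alone.

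**Figure D5:**
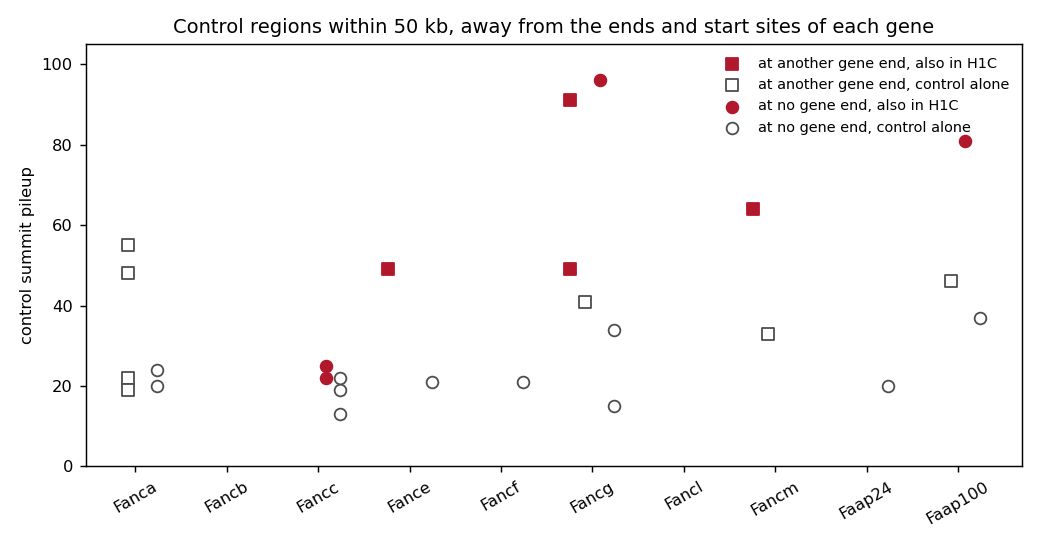
Control summit pileup (vertical axis) of the 26 control regions within 50 kb of each gene but away from its ends and start site. Squares lie at an end of another protein-coding gene and circles at none; filled red symbols were also called in H1C and open ones in control alone. The filled symbols reach pileups of 91 and 96 at Fancg, and all 6 at Fanca are open.

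Most other genes of the pathway were also open at an end in both libraries. Of 24 other Fanconi genes (the substrates, the conjugating enzyme, the deubiquitinase, nucleases and recombination genes), 18 had a gene-end region in H1C and 22 in control, and all 18 were in both. Over all protein-coding genes 33.6% had one in H1C and 46.9% in control, and 71.0% of those with one in control had one in H1C too. The genes in control alone were Fancd2 and Fanci, which encode the substrates of the core complex (control pileups 20 and 35), and Brca2 and Xrcc2, which act in homologous recombination (20 and 32). Faap20, the small partner of FANCA, and Mad2l2, a polymerase subunit, had no gene-end region in either list. The highest control pileups belonged to Brca1 (50 in H1C and 98 in control), Usp1, which removes the ubiquitin from FANCD2 (56 in H1C and 93 in control), and Blm, a helicase (60 in H1C and 92 in control). Ube2t, the conjugating enzyme that works with FANCL, had 36 in H1C and 59 in control. Cenps and Cenpx, the histone-fold partners of FANCM, had 23 and 52 in H1C, against 39 and 81 in control. Over the 18 genes the median log2 ratio of the highest summits was -0.88, from -1.20 to -0.37, and all 18 lay below 0. Over all 7288 protein-coding genes with a gene-end region in both lists the median was -0.85 and 99.3% lay below 0, so the values of the 18 lay near the background.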

How the data were processed

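Each library had its own peak list in mm10, called per sample. Tools named in the submitters' processing notes are MACS2, Bowtie2 2.2.9, Trim Galore 0.4.4, featureCounts and Picard. Whether duplicates were removed or reads shifted to the cut site is not given in the sources used here, and both bear on pileups and widths. The deposited fold is a ratio of summit pileup to local background, each plus 1. Its −log10 p, −log10 q and score (10 times −log10 q) columns, also deposited, come from the authors' peak calling and rank regions within a list.

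Pileups were solved from fold and Poisson −log10 p and were whole (tolerance 0.0001, relative) for 13156 of 13156 entries in H1C and 32005 of 32005 in control; the solver was tested on simulated data. Depth is known only through the genome background. Touching entries on chromosomes 1 to 19, X and Y were merged. Start sites and promoter bases came from RefSeq (GRCm38.p6). No test between libraries was possible. The genes, lists and motifs were chosen with earlier results of these data known, and start site counts were added after the values were seen. All 10 genes are named, with other pathway genes uncalled in a list or among the 3 highest in control; Ube2t, Cenps and Cenpx were added after their values were seen, as partners of FANCL and FANCM. Regions away from the ends were named where highest in control at a gene or in H1C alone; those at Vcp, Spata2l, Cdk10 and Spire2 and the Fancc region higher in H1C were chosen after their values were seen. One such region is not reported here. Other pathway genes matched 24 of 24. Alternatives covered windows, flanks, thresholds, overlap and scaling. Software was scipy 1.17.1, pandas 2.3.3, numpy 2.4.6 and matplotlib 3.10.9 under Python 3.11.15.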

Additional observations from a re-analysis of the deposited data

How the results depend on the processing

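No paired analysis was possible because there was 1 library per group, and none could be left out. Of 62 alternatives for 15 results, 60 stayed within the counting interval of the value (counts within 1.5 times), 2 moved and 0 changed sign, which only ratios could do. Many of these could hardly move. A change of scale shifts each gene's log2 ratio by a constant smaller than its interval, and summed pileups returned the same values. A count of genes that falls from 7 to 5 is still within 1.5 times. The tally is therefore no measure of how firm the results are. With the local background at shared summits as the scale, the median log2 ratio of the shared gene-end regions was -0.56 and 3 counting intervals lay below 0, in place of 7; the background ratio itself shifts every value by the same amount. Genes called in H1C numbered 5 at a fold of at least 5 and 8 within 2500 bp, where the region at the end of Vcp is counted for Fancg. With 50% reciprocal overlap 5 genes were shared. In lists of equal length 77.8% of the control gene-end regions of the genes were shared. Flanks of 100000 bp gave 42.3% of regions away from the ends shared, and flanks of 20000 bp 31.3%. The matching shares over all genes and regions were not computed under these settings. These values therefore cannot be set beside the shares over all features given above. The cause of these shifts was not tested. With 1 library per group, the spread between libraries and animals was not measured, and the intervals cover counting error only.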
